A study of Mus musculus with 7 samples.

Results

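Bile acid synthesis, uptake and export in the liver was followed through 10 genes, chosen by symbol from a table of 22564 genes: the synthesis enzymes Cyp7a1, Cyp8b1, Cyp27a1 and Cyp7b1, the conjugating enzyme Baat, the sinusoidal importers Slc10a1 and Slco1b2, the canalicular exporter Abcb11, and the nuclear receptors Nr1h4 and Nr0b2. Each symbol stands on a single line of the table. The samples are liver RNA of C57bl/6 mice: 4 libraries came from mice treated with PTH (parathyroid hormone, a peptide that raises cyclic AMP through its receptor) and 3 from mice treated with PBS (phosphate-buffered saline). The titles carry C+P for PTH and C for PBS with no meaning given for C, which leaves any treatment shared by both groups unknown. The labels give no dose, duration, age or sex and do not tie libraries to animals, and the p-values therefore measure the spread between these samples, which may be technical. Libraries are named by group and replicate, such as PTH 2.

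Hepatocytes make bile acids from cholesterol. In the classical route CYP7A1 carries out the first and rate-limiting step and CYP8B1 sets the share of cholic acid. An alternative route uses CYP27A1 and CYP7B1, and BAAT joins bile acids to taurine or glycine. NTCP, encoded by Slc10a1, and the organic anion transporter encoded by Slco1b2 bring bile acids back from portal blood, and the bile salt export pump encoded by Abcb11 moves them into the canaliculus. Bile acids activate FXR (Nr1h4), which induces SHP (Nr0b2) and Abcb11, and SHP lowers transcription of Cyp7a1 and Cyp8b1.

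Among the members, 4 fell in PTH livers and none rose. Cyp8b1, Slco1b2, Slc10a1 and Abcb11 were lower by limma with Benjamini-Hochberg adjustment over all 11861 tested genes, with log2 changes of -2.97, -1.70, -1.20 and -1.15. All 10 members passed the filter on low values, so 4 of 10 were called lower and 0 of 10 higher, beside 2.37% of all tested genes called lower and 22.8% called higher. The median log2 change was -1.24 over the 10 members, of which 9 were negative, and 0.55 over all tested genes, of which 21.8% were negative. Cyp7b1 was the single member with a positive log2 change, 1.27, and it did not pass the test. The values are FPKM (fragments per kilobase of transcript, scaled to sequencing depth), and changes are PTH minus PBS on the log2(FPKM + 0.5) scale, which understates the change of low genes. Means are given ± SD over 4 PTH and 3 PBS libraries.

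The stretches upstream of the 4 members that fell are shown because these genes share a call. Whether they vary together between libraries was not tested. They are the 250 bases before the start of transcription in RefSeq (GRCm38.p6), read 5′ to 3′ on the gene's strand, with matches to the motifs searched in capitals.
Cyp8b1, chr9:121916306-121916555, minus strand: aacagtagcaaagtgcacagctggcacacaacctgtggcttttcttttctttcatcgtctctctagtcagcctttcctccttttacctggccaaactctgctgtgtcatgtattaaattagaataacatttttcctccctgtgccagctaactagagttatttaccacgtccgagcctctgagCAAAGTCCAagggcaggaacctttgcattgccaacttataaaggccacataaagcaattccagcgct
Slco1b2, chr6:141629268-141629517, plus strand: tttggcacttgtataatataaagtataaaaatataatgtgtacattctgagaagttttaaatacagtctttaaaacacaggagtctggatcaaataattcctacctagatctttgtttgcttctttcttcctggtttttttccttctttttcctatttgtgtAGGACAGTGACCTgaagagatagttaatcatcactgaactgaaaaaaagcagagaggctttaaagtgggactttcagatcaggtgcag
Slc10a1, chr12:80968080-80968329, minus strand: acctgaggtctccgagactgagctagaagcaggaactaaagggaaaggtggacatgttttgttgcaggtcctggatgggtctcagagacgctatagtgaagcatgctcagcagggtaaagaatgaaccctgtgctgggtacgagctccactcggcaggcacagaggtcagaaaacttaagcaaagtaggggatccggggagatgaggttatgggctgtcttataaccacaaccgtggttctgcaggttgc
Abcb11, chr2:69342617-69342866, minus strand: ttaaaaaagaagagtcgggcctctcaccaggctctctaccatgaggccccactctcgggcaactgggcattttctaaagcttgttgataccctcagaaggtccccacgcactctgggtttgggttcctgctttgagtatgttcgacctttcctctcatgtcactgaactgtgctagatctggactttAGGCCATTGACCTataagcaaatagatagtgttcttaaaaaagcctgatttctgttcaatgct

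Promoters were held for 7 of the 10 members (8 windows, since Slc10a1 has several starts; the one shown begins where its locus in the table ends). Both strands were searched for the inverted repeat that FXR binds with its partner RXR, strictly as AGGTCA and TGACCT with 1 base between them and, more openly, as AGGNCA and TGNCCT with 1 base between them, a pattern that also matches every strict site. The open form was found in Abcb11, as AGGCCATTGACCT beginning 63 bases before the start, and in Slco1b2, as AGGACAGTGACCT beginning 88 bases before it, and in 28 of 32851 mouse promoter windows of the same length (0.0852%). The strict form was in 2 windows (0.00609%) and in none of the members. CAAAGTCCA, a sequence of the type bound by HNF4 alpha, was in Cyp8b1, beginning 67 bases before the start, and in 0.384% of all windows. The cyclic AMP response element TGACGTCA, carried by 1.55% of windows, its shorter core TGACG, which lies within it and was carried by 17.8%, and TCAAGGNCA, of the type bound by LRH-1 and carried by 1.39%, were in no member's window. A match describes letters only, and a missing one says nothing of sequence outside the window.

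**Figure D1:**
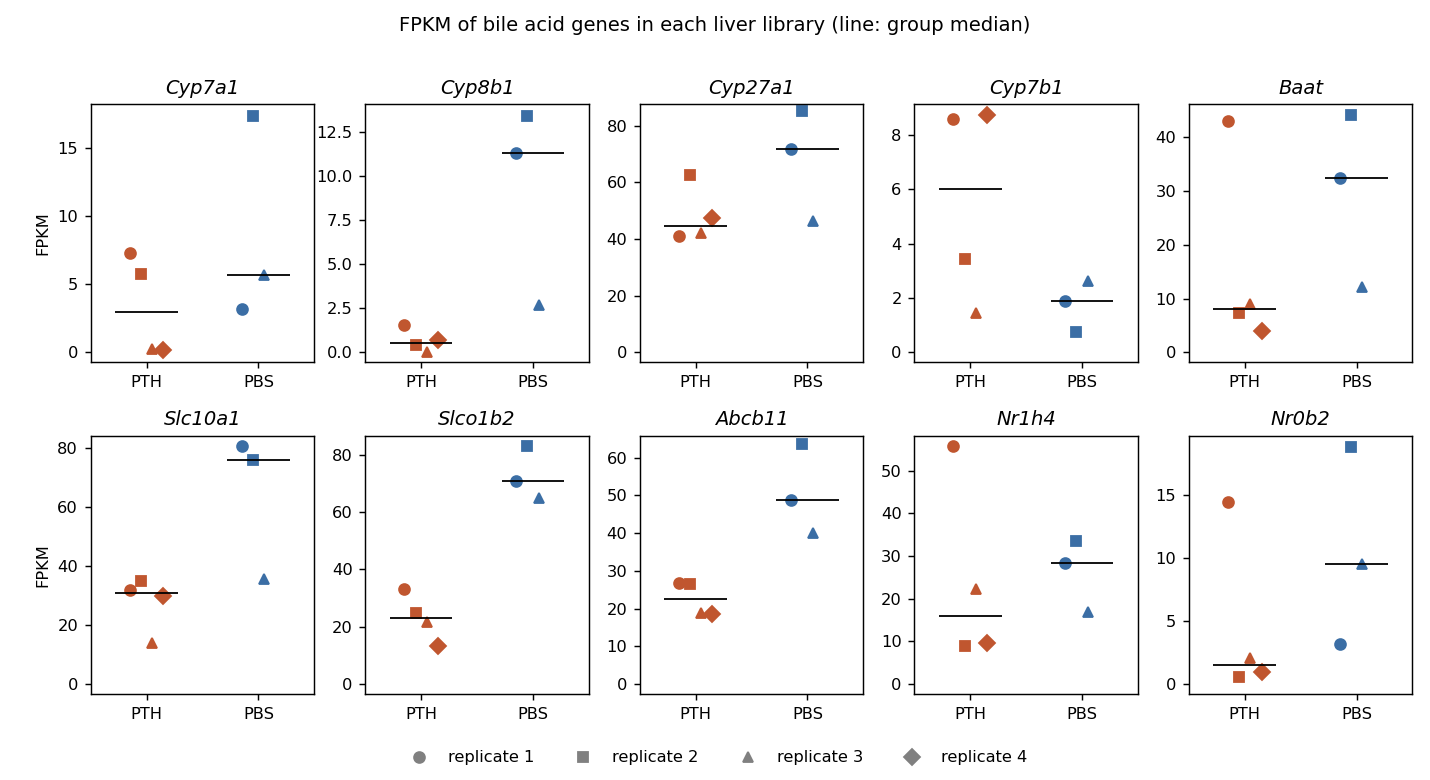
FPKM of the 10 bile acid genes (y axis, linear, 1 panel per gene) in the 4 PTH and 3 PBS libraries, with a point per library, a marker shape per replicate number and a line at the group median. The PTH points lie below all PBS points for Cyp8b1, Slc10a1, Slco1b2 and Abcb11, and PTH 1 lies far above the other PTH libraries for Baat, Nr1h4 and Nr0b2.

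Cyp8b1 (ENSMUSG00000050445, chromosome 9 from 121914356 to 121916305 in GRCm38, minus strand), the sterol 12-alpha-hydroxylase needed for cholic acid, had 1.57, 0.429, 0 and 0.685 FPKM in PTH 1 to 4, against 11.3, 13.4 and 2.70 FPKM in PBS 1 to 3. Every PTH library was below every PBS library, and PBS 3 was well below the other PBS libraries. The log2 change was -2.97 (SE 0.58, limma adjusted p = 0.00772), and the exact two-sided permutation p was 0.0571, the smallest that 4 libraries against 3 allow. The PTH values rest on 14, 4, 0 and 4 estimated reads and the PBS values on 86, 80 and 12. The 0 in PTH 3 allows up to 3 reads, or 0.378 FPKM, by counting error alone. The call held with each library left out in turn, with log2 changes from -3.63 to -2.57.

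Cyp7a1 (ENSMUSG00000028240, chromosome 4 from 6265612 to 6275633, minus strand), the cholesterol 7-alpha-hydroxylase, had 7.34, 5.73, 0.225 and 0.153 FPKM in PTH 1 to 4, against 3.17, 17.3 and 5.69 FPKM in PBS 1 to 3. The groups overlapped, and the log2 change of -1.76 (SE 0.89, 95% interval -3.70 to 0.19) did not pass (limma adjusted p = 0.156, exact two-sided permutation p = 0.343). The deposited FPKM of Cyp7a1 does not follow its read support. The scaled counts of the same table, divided by the step that 1 read is worth in each library, gave 147, 3, 4 and 2 reads in PTH 1 to 4 and 54, 232 and 1 read in PBS 1 to 3. A scaled count of 22.5 stood behind each unit of FPKM in 5 libraries, but 0.562 in PTH 2 and 0.397 in PBS 3. The spread of this ratio between libraries was 56.8-fold for Cyp7a1, the largest among 11059 tested genes above 0 in all libraries, whose median spread was 1.24-fold and of which 32 (0.289%) exceeded 10-fold. GENCODE M21 lists a protein-coding Cyp7a1 transcript of 4172 bases and a processed transcript of 228 bases, and whether reads were assigned to the short one was not tested.

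By reads, Cyp7a1 was high in PTH 1, PBS 1 and PBS 2, with at least 54 reads, and at 4 reads or fewer in PTH 2, PTH 3, PTH 4 and PBS 3. With scaled counts its log2 change was -1.70 (limma adjusted p = 0.495). Without PTH 2 and PBS 3, an alternative chosen after seeing the data, it was -2.39 by FPKM (limma adjusted p = 0.217). No setting tried brought Cyp7a1 past the threshold.

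**Figure D2:**
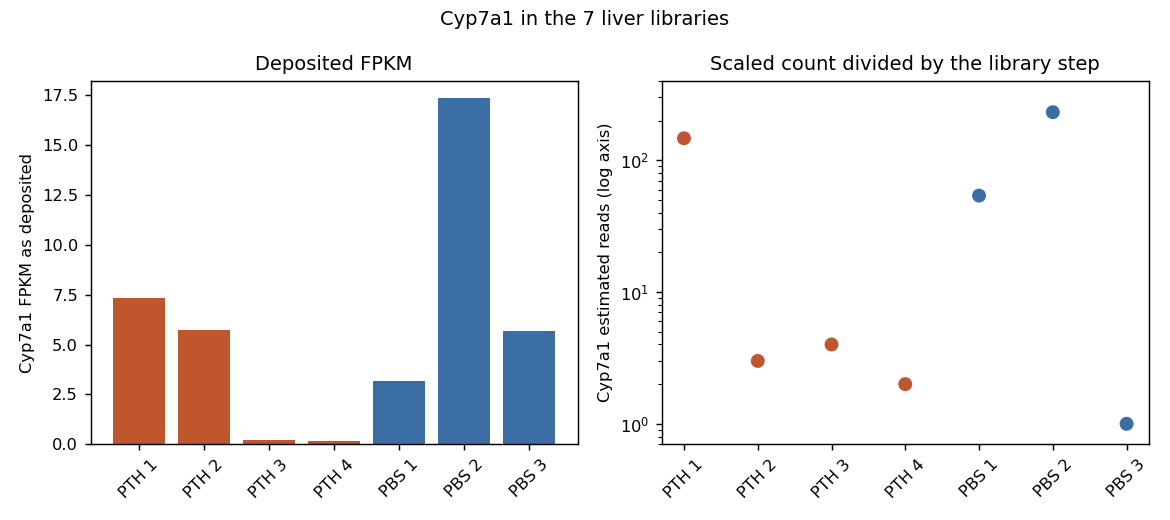
Cyp7a1 in each library: deposited FPKM (left, linear axis, bars) and estimated reads, the scaled count divided by the library's step (right, log axis, points), with PTH libraries before PBS libraries. PTH 2 and PBS 3 stand at 5.73 and 5.69 FPKM although they hold 3 reads and 1 read.

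Cyp27a1 (ENSMUSG00000026170, chromosome 1 from 74713574 to 74737892, plus strand), the mitochondrial sterol 27-hydroxylase, had 41.1, 62.7, 42.0 and 47.3 FPKM in PTH 1 to 4, against 71.9, 85.2 and 46.3 FPKM in PBS 1 to 3. PTH 2 and PTH 4 lay above PBS 3, so the groups overlapped. The log2 change was -0.46 (SE 0.29, 95% interval -1.09 to 0.17, limma adjusted p = 0.243, exact two-sided permutation p = 0.171). With every library scaled to a common median of tested genes, which takes out the shift of 0.55 in the median of all genes, the change was -1.08 and passed (limma adjusted p = 0.0275). That call was lost by quantile scaling (-0.88, limma adjusted p = 0.0605) and, under a common median, without PTH 2, PTH 3, PTH 4, PBS 1 or PBS 2 (limma adjusted p of 0.0608, 0.0758, 0.0537, 0.0813 and 0.0781). On that scale 5 of 10 members were called lower and 0 higher, with a median of -1.85, beside 4.75% of all tested genes lower and 2.96% higher; of all calls 38.4% were higher on that scale, against 90.6% as deposited. The table gives Cyp27a1 a locus that it also lists for 4 other genes, so reads could be split between them.

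Cyp7b1 (ENSMUSG00000039519, chromosome 3 from 18071950 to 18243338, minus strand), the oxysterol 7-alpha-hydroxylase of the alternative route, had 8.59, 3.44, 1.46 and 8.71 FPKM in PTH 1 to 4, against 1.88, 0.747 and 2.61 FPKM in PBS 1 to 3. PTH 1, PTH 2 and PTH 4 exceeded every PBS library and PTH 3 did not. The log2 change of 1.27 (SE 0.55, 95% interval 0.06 to 2.47) did not pass after adjustment (limma adjusted p = 0.107, exact two-sided permutation p = 0.171). Without PTH 3 it was 1.72 and passed (limma adjusted p = 0.0361, beside 13.3% of all tested genes called higher without that library), and under a common median it shrank to 0.76 (limma adjusted p = 0.449). Cyp7b1 holds 13 to 86 estimated reads in PTH libraries and 5 to 16 in PBS libraries.

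Within a library, log2 ratios were taken after adding 0.5 to each FPKM. That of Cyp7a1 to Cyp7b1 was -0.21, 0.66, -1.43 and -3.82 in PTH 1 to 4, against 0.63, 3.84 and 0.99 in PBS 1 to 3. The ratio of Cyp8b1 to Cyp7a1 was -1.92, -2.75, -0.54 and 0.86 in PTH livers, against 1.68, -0.36 and -0.95 in PBS livers. Both ratios overlapped between the groups, and their PTH 2 and PBS 3 values rest on the Cyp7a1 FPKM with little read support. In PTH 3 and PTH 4 Cyp7a1 rests on 4 and 2 reads, and Cyp8b1 was at 0 FPKM in PTH 3. The added 0.5 shrinks the ratios of these libraries.

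Baat (ENSMUSG00000039653, chromosome 4 from 49489422 to 49506557, minus strand), which conjugates bile acids with amino acids, had 43.1, 7.34, 8.97 and 3.91 FPKM in PTH 1 to 4, against 32.5, 44.1 and 12.2 FPKM in PBS 1 to 3. PTH 1 came close to the highest PBS library, while PTH 2, PTH 3 and PTH 4 lay below all of them. Baat had a log2 change of -1.28 (SE 0.67, 95% interval -2.75 to 0.19, limma adjusted p = 0.169, exact two-sided permutation p = 0.171). Without PTH 1 the change was -1.94 and passed (limma adjusted p = 0.0147).

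Both importers were called lower. Slco1b2 (ENSMUSG00000030236, chromosome 6 from 141629518 to 141686646, plus strand), which takes up bile acids and other organic anions, had 33.2, 24.6, 21.5 and 13.2 FPKM in PTH 1 to 4, against 70.8, 83.1 and 64.9 FPKM in PBS 1 to 3. In FPKM, the gap between the highest PTH and the lowest PBS library was wider than the range within either group. On the log2 scale of the test, that gap was narrower than the range of the PTH libraries. Slco1b2 changed by a log2 value of -1.70 (SE 0.31, 95% interval -2.38 to -1.01, limma adjusted p = 0.00654, exact two-sided permutation p = 0.0571), and the call held with each library left out (-1.89 to -1.46).

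Slc10a1 (ENSMUSG00000021135, chromosome 12 from 80953183 to 80968705, minus strand, a span that ends at 80968079 in the deposited table), the sodium-dependent importer of conjugated bile acids, had 31.7, 34.7, 13.8 and 29.8 FPKM in PTH 1 to 4, against 80.7, 76.0 and 35.6 FPKM in PBS 1 to 3. The groups did not overlap, but PTH 2 and PBS 3 nearly met. For Slc10a1 the log2 change was -1.20 (SE 0.39, 95% interval -2.04 to -0.35, limma adjusted p = 0.0425, exact two-sided permutation p = 0.0571). The call rests on the full set of libraries: the adjusted p by limma was 0.0709 without PTH 2, 0.101 without PTH 3, 0.0545 without PTH 4, 0.128 without PBS 1 and 0.127 without PBS 2, with log2 changes from -1.57 to -0.90 over all 7 omissions. It was also lost with no filter on low values (limma adjusted p = 0.0702) and without the trend and robust options of limma (adjusted p = 0.0557).

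Abcb11 (ENSMUSG00000027048, chromosome 2 from 69238282 to 69342616, minus strand), the bile salt export pump, had 26.7, 26.4, 18.8 and 18.5 FPKM in PTH 1 to 4, against 48.9, 63.5 and 40.1 FPKM in PBS 1 to 3. The groups did not overlap, and PBS 2 was the highest. Abcb11 had a log2 change of -1.15 (SE 0.27, 95% interval -1.74 to -0.55, limma adjusted p = 0.015, exact two-sided permutation p = 0.0571), and it missed the threshold without PBS 2 alone among the single omissions (-0.98, limma adjusted p = 0.0581). The 4 members that fell are those whose FPKM did not overlap between the groups, with PTH lower, which held for 3.2% of all tested genes.

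**Figure D3:**
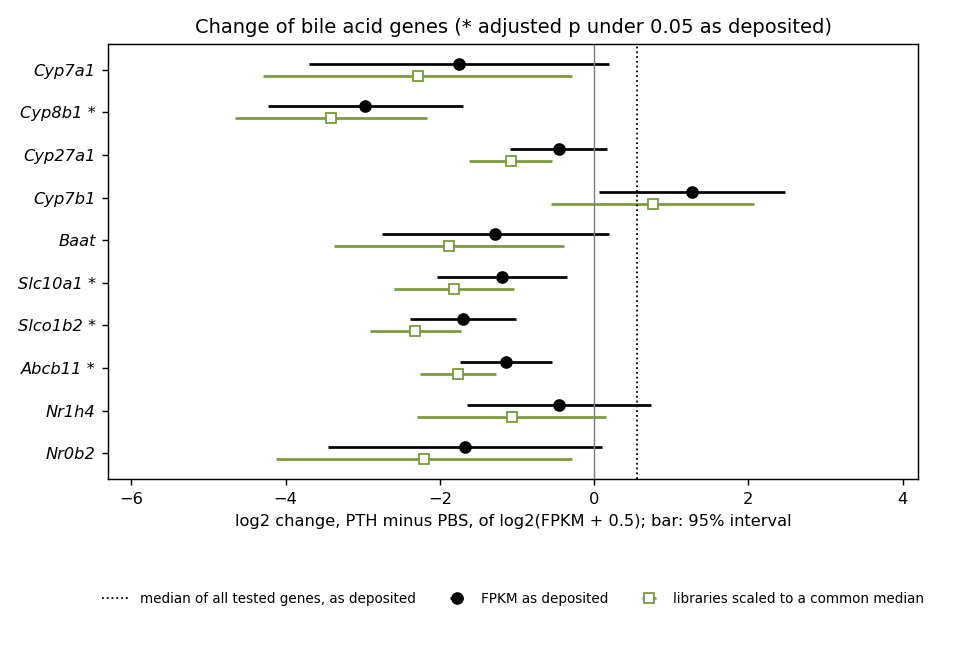
Log2 change of the 10 bile acid genes, PTH minus PBS (x axis), with 95% intervals from limma, for FPKM as deposited (filled circles) and with libraries scaled to a common median (open squares); the dotted line is the median of all tested genes, 0.55. The intervals of Cyp8b1, Slc10a1, Slco1b2 and Abcb11 lie below 0 on both scales, and scaling moves all 10 genes further down.

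Import and export can be compared within a library, where its scaling all but cancels (ratios again of FPKM + 0.5). The log2 ratio of Slc10a1 to Abcb11 was 0.22 ± 0.47 in PTH livers and 0.27 ± 0.44 in PBS livers (SD, n = 4 and 3), so the groups differed by far less than their spread. The log2 ratio of Slco1b2 to Abcb11 was 0.31, -0.10, 0.19 and -0.47 in PTH 1 to 4, against 0.53, 0.38 and 0.69 in PBS 1 to 3. Every PTH library had the lower ratio of Slco1b2 to Abcb11, though PTH 1 and PBS 2 were close.

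Nr1h4 (ENSMUSG00000047638, chromosome 10 from 89454234 to 89533585, minus strand), which encodes the bile acid receptor FXR, had 55.8, 9.03, 22.2 and 9.67 FPKM in PTH 1 to 4, against 28.4, 33.4 and 16.9 FPKM in PBS 1 to 3. PTH 1 was the highest of all 7 libraries and PTH 2 and PTH 4 the lowest. For Nr1h4 the log2 change was -0.46 (SE 0.55, 95% interval -1.65 to 0.74, limma adjusted p = 0.549, exact two-sided permutation p = 0.571), an interval that leaves room for a change in either direction. The value turned on single libraries: it was -0.98 without PTH 1 (limma adjusted p = 0.0798), -0.13 without PTH 2 (0.889), -0.16 without PTH 4 (0.847), -0.26 without PBS 2 (0.792) and -0.74 without PBS 3 (0.42).

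Nr0b2 (ENSMUSG00000037583, chromosome 4 from 133553376 to 133556536, plus strand), which encodes the repressor SHP, had 14.4, 0.594, 2.08 and 0.946 FPKM in PTH 1 to 4, against 3.14, 18.8 and 9.52 FPKM in PBS 1 to 3. PTH 1 stood above PBS 1 and PBS 3, and the other PTH libraries were below every PBS library. For Nr0b2 the log2 change was -1.67 (SE 0.81, 95% interval -3.45 to 0.11, limma adjusted p = 0.143, exact two-sided permutation p = 0.229), and without PTH 1 it was -2.48 and passed (limma adjusted p = 0.013). Nr0b2 rests on 70, 3, 9 and 3 estimated reads in PTH 1 to 4 and on 13, 61 and 23 in PBS 1 to 3.

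PTH 1 was the highest PTH library for 7 of the 10 members, and PBS 2 was the highest PBS library for 8. PBS 3 was the lowest PBS library for 7 members. The summed FPKM of the 10 members was 263, 175, 131 and 133 in PTH 1 to 4, against 353, 436 and 236 in PBS 1 to 3, so PTH 1 exceeded PBS 3 by this measure. Leaving out PTH 1 raised the number of members called lower to 6, by adding Baat and Nr0b2, beside 3.63% of all tested genes, whereas leaving out PBS 2 reduced it to 2, Cyp8b1 and Slco1b2, beside 1.34%. Estimated reads from the listed genes came to 1621736 to 3281553 in PTH libraries and 1200698 to 2556709 in PBS libraries, the fewest in PBS 3.

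Levels were also ranked within each library, which no scaling of a library can alter. Abcb11 stood at the 83.4 ± 2.15 percentile of tested genes in PTH livers and at 95.5 ± 0.929 in PBS livers (SD, n = 4 and 3), and Slco1b2 at 74.4 to 88.5 in PTH livers and 96.5 to 97.4 in PBS livers. Slc10a1 stood at 85.1 ± 8.22 in PTH livers and 96.2 ± 1.49 in PBS livers, and Cyp8b1 at 7.15 ± 6.88 and 65.6 ± 21.8. The ranks of these 4 genes did not overlap between the groups, with PTH lower, which held for 11% of all tested genes (exact two-sided permutation p = 0.0571 each, the smallest possible, over 10 members tested in this way). Cyp27a1, whose FPKM overlapped, also separated by rank, at 91.0 to 94.8 in PTH livers and 95.8 to 97.5 in PBS livers (exact two-sided permutation p = 0.0571), so 5 of 10 members separated by rank, read against that 11%. The ranks of Cyp7a1, Cyp7b1, Baat, Nr1h4 and Nr0b2 overlapped.

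**Figure D4:**
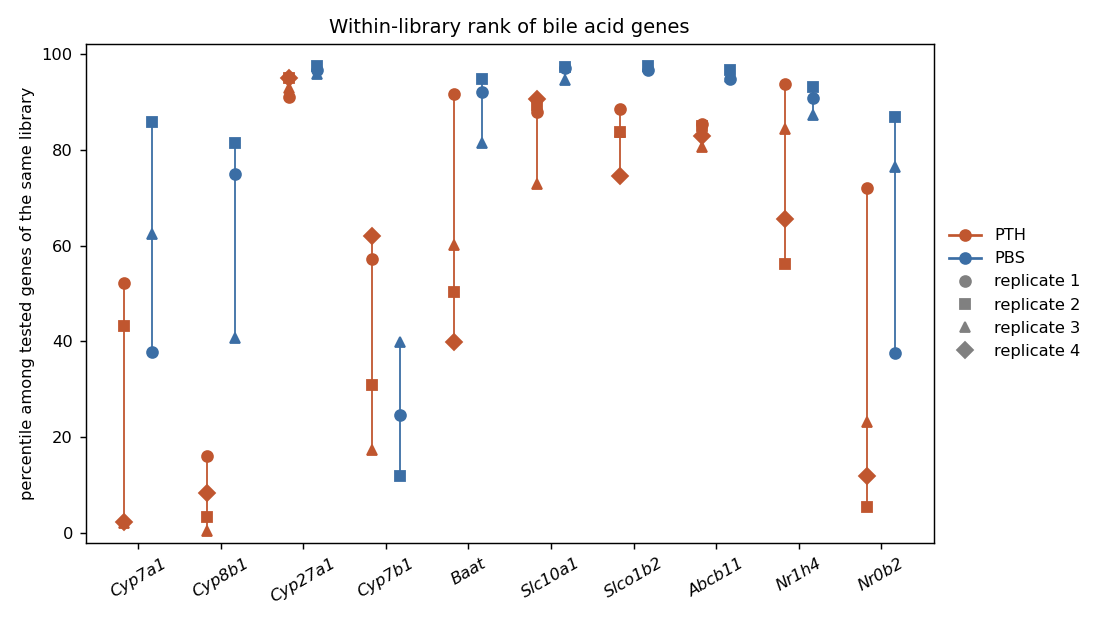
Percentile of each bile acid gene among the tested genes of its own library (y axis, 0 to 100), with a point per library, PTH left of PBS for each gene, and a line over each group's range. Cyp8b1, Cyp27a1, Slc10a1, Slco1b2 and Abcb11 have separate ranges with PTH lower, and Cyp7b1 is the only gene with a higher PTH mean (41.9 against 25.5).

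The wider pathway was described through 4 lists of 63 genes in all. Of 15 tested genes among the other bile acid synthesis and conjugation enzymes, 2 fell and 0 rose, with a median log2 change of -0.14. Of all tested genes, 2.37% were called lower and 22.8% higher. Cyp2c70, the P450 that makes muricholic acids in mice, fell to 75.0 ± 26.2 FPKM in PTH livers, against 204 ± 25.2 in PBS livers, a log2 change of -1.51 (SE 0.32, limma adjusted p = 0.0101) that passed in all 25 other settings tried on it. Akr1d1, the steroid 5-beta-reductase of bile acid synthesis, fell to 3.09 ± 2.21 FPKM in PTH livers, against 10.03 ± 2.85 in PBS livers (log2 change -1.76, SE 0.49, limma adjusted p = 0.0256), and missed the threshold without PTH 3 (adjusted p = 0.0621), PBS 1 (adjusted p = 0.0779) or PBS 2 (adjusted p = 0.0641). The abundant enzymes that did not pass were Scp2, a sterol carrier, with 379 ± 148 FPKM in PTH livers and 384 ± 118 in PBS livers, Slc27a2 with 158 ± 43.7 and 207 ± 38.3, the bile acid-CoA ligase Slc27a5 with 158 ± 33.1 and 108 ± 24.8, and the P450 Cyp2a12 with 132 ± 41.5 and 79.4 ± 17.01.

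Of 9 tested genes among the other sinusoidal transporters, 2 rose and 1 fell, with a median log2 change of -0.24. The share that rose is near the 22.8% of all tested genes called higher, and 2.37% were called lower. Abcc4, which exports bile acids back to blood, rose to 2.33 ± 0.710 FPKM in PTH livers, against 0.647 ± 0.224 in PBS livers (log2 change 1.28, SE 0.35, limma adjusted p = 0.0254). Abcc3, an exporter of conjugates on the same membrane, rose to 25.8 ± 4.52 FPKM in PTH livers, against 12.2 ± 5.44 in PBS livers (log2 change 1.11, SE 0.31, limma adjusted p = 0.0263). Slc22a7, an organic anion importer, fell to 1.32 ± 0.539 FPKM in PTH livers, against 6.12 ± 3.65 in PBS livers (log2 change -1.70, SE 0.48, limma adjusted p = 0.0262), and it missed the threshold without PTH 2 (adjusted p = 0.0652), PTH 3 (adjusted p = 0.0626), PBS 1 (adjusted p = 0.0836) or PBS 2 (adjusted p = 0.0976). Slc22a7 does not have its listed locus to itself, so its reads could be split with another gene. It passed in 16 of 24 other settings, and removal of shared loci took it out. Neither exporter passed under a common median, where the change of Abcc4 was 0.87 (limma adjusted p = 0.141) and that of Abcc3 was 0.51 (limma adjusted p = 0.27). With 1 library left out, the call of Abcc4 was lost without PTH 3, PBS 2 or PBS 3 (limma adjusted p of 0.0654, 0.0785 and 0.0657), and that of Abcc3 without PTH 2, PTH 3, PBS 2 or PBS 3 (0.0796, 0.0527, 0.0779 and 0.0983). Abcc6, Slco2b1 and Slco2a1 did not pass, with log2 changes of -0.24, -0.82 and 1.06. The bile acid exporter gene Slc51a was listed at 0 in all libraries and Slc51b in all but PBS 3, at 1.23 FPKM.

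Of 10 tested genes among the other canalicular transporters, 1 rose and 0 fell, with a median log2 change of 0.14. The share that rose is below the 22.8% of all tested genes called higher. Abcc2, which exports conjugated bilirubin and glutathione conjugates, rose to 169.9 ± 44.6 FPKM in PTH livers, against 86.2 ± 23.9 in PBS livers (log2 change 0.97, SE 0.30, limma adjusted p = 0.0372), and it passed in 8 of the 25 other settings, with a change of 0.35 under a common median. Of the 7 single omissions, those of PTH 1 and PBS 2 left Abcc2 past the threshold, and those of PTH 2, PTH 3, PTH 4, PBS 1 and PBS 3 gave limma adjusted p of 0.111, 0.0678, 0.0665, 0.0762 and 0.131. Tmem30a, the phospholipid exporter gene Abcb4, Abcg2 and the sterol exporter gene Abcg5 did not pass, with log2 changes of 0.40, 0.14, 0.11 and -0.06. The 95% interval of the log2 change was 0.31 to 1.63 for Abcc2 and, as given above, wholly negative for Abcb11; the difference between these exporters was not tested.

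Of 19 tested regulators, 1 rose and 0 fell, with a median log2 change of -0.09. The share that rose is below the 22.8% of all tested genes called higher, and 2.37% were called lower. Foxa2, a hepatocyte transcription factor, rose to 15.2 ± 5.24 FPKM in PTH livers, against 5.52 ± 3.58 in PBS livers (log2 change 1.53, SE 0.43, limma adjusted p = 0.0279), and did not pass under a common median (0.95, limma adjusted p = 0.215) or without PTH 2, PTH 4, PBS 2 or PBS 3 (limma adjusted p of 0.0761, 0.058, 0.0954 and 0.0612). Hnf4a had 75.0 ± 25.7 FPKM in PTH livers and 93.2 ± 28.6 in PBS livers, and Rxra, the partner of FXR, had 41.6 ± 12.9 and 44.0 ± 8.88. Cebpa and Insr did not pass either, with log2 changes of 0.63 and 0.36. Fgf15, the intestinal hormone that lowers Cyp7a1, was listed at 0 in every library.

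**Figure D5:**
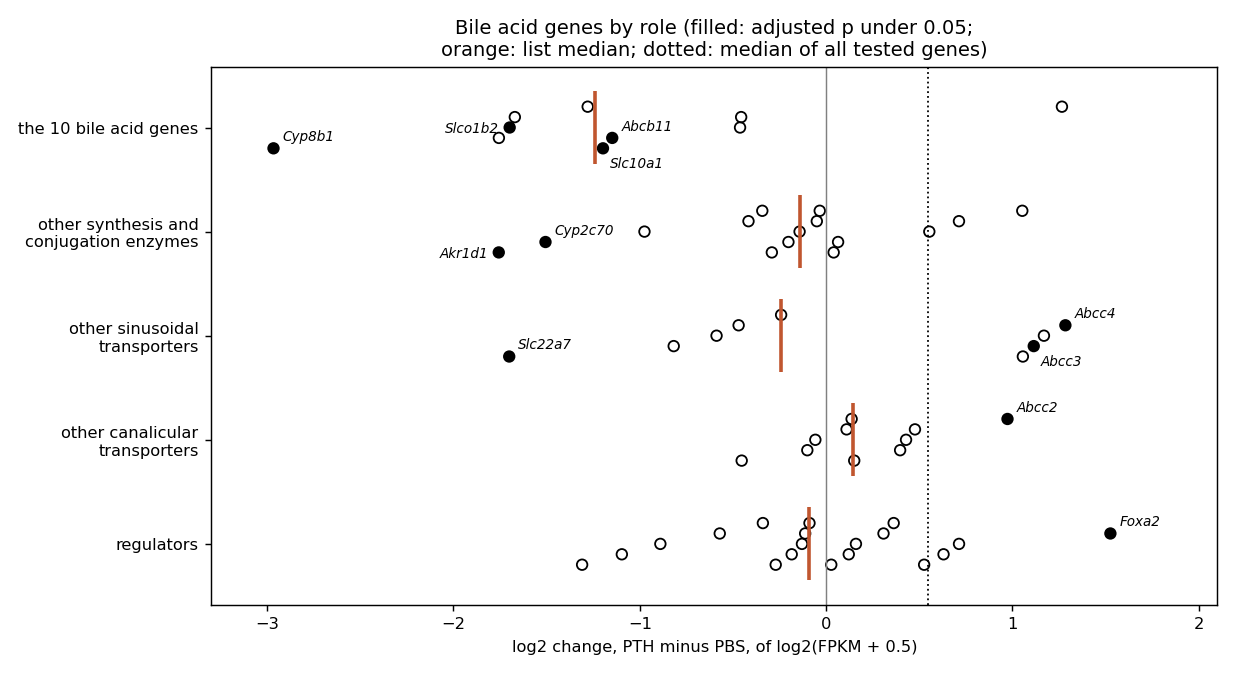
Log2 change, PTH minus PBS (x axis), of every tested gene in the 10 bile acid genes and 4 wider lists (rows); filled points passed an adjusted p of 0.05 and are named, orange bars are list medians and the dotted line is the median of all tested genes. The 10 bile acid genes have the lowest median, -1.24, and the other rows lie between -0.24 and 0.14.

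Pattern likeness was measured as the root mean square difference between log2 profiles over the 7 libraries, each centred on its own mean. Genes named only by a number or clone code were left out. The closest gene outside the 10 to Baat was Bbox1, at 0.191 log2 units, to Slco1b2 Apon at 0.203, to Abcb11 Fcna at 0.180 and to Slc10a1 Slc6a12 at 0.206. Cyp8b1 was closest to Upp2 at 0.479, Nr1h4 to Idh1 at 0.194, Cyp27a1 to Atg14 at 0.149 and Cyp7b1 to Tead2 at 0.310. Cyp7a1 and Nr0b2 lay furthest from their closest genes, Col15a1 at 0.627 and Esr1 at 0.591. Both also varied most between PTH libraries (SD of log2 values 1.94 and 1.69), and this measure grows with such spread. The Cyp7a1 profile includes PTH 2 and PBS 3, where its FPKM has little read support.

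In bulk liver, fewer hepatocytes and less RNA per hepatocyte cannot be told apart. Of 11 hepatocyte markers tested, 3 fell (Fgb, Tat and Ass1) and 0 rose, and their summed FPKM was 23029 to 39428 in PTH livers and 17596 to 38588 in PBS livers, with Alb, encoding albumin, between 12239 and 23447 FPKM in PTH livers and between 5944 and 17682 in PBS livers. Of 8 tested Kupffer cell markers 5 fell and 1 rose, with a summed level of 96.6 to 161 FPKM in PTH livers and 163 to 222 in PBS livers. Of 5 tested neutrophil markers 3 fell (S100a8, S100a9 and Ngp), with a summed level of 3.76 to 36.1 FPKM in PTH livers and 37.9 to 774 in PBS livers. PBS 1 had the highest S100a8 and S100a9, at 302 and 346 FPKM. Ngp, at 57.8, 0.566 and 4.95 FPKM in PBS 1 to 3, passed the filter through PBS libraries alone, so the filter favoured a fall. Csf3r had a log2 change of 0.24 and did not pass the test, and Ly6g was at 0 in all libraries. Of 10 tested cholangiocyte markers 3 rose (Krt7, Tspan8 and Aqp1), with sums of 84.4 to 108 FPKM in PTH livers and 86.1 to 129 in PBS livers. Krt7 and Tspan8 are low, with means of 0.906 and 1.25 FPKM in PTH livers, against 0.0688 and 0.0818 in PBS livers. Both passed the filter on low values through PTH libraries alone, so the filter favoured a rise and their calls carry little weight. Of 8 endothelial markers 2 rose and of 8 stellate cell markers 1 rose, and no lymphocyte marker passed the filter. These rises are to be read against the 22.8% of all tested genes called higher, and the falls against the 2.37% called lower. Under a common median no marker of any list was called higher. On that scale 5 Kupffer cell, 3 neutrophil, 3 hepatocyte, 1 cholangiocyte and 1 stellate cell marker were called lower, beside 4.75% of all tested genes. The part of these other cells in the changes of the bile acid genes was not tested.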

How the data were processed

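The authors deposited 1 table of FPKM and counts for 22564 genes in 7 mouse liver RNA libraries, per the file headers. The submitters' processing notes name Bowtie 0.12.2 and mm8; for the quantifier the sources used here give no name. The loci of 8 of 10 members equal GENCODE M21 (GRCm38) within 1 base, so coordinates are those of M21. The deposited count columns are a scaled signal: 92.0% to 94.0% of values above 0.5 of a library's step are whole multiples of it within 0.05. No count test was run, and a count divided by the step was taken as an estimate of reads. FPKM was not rescaled.

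The fit was run on log2(FPKM + 0.5) for genes reaching 0.5 FPKM in 3 or more libraries, with limma 3.58.1 (trend, robust) in R 4.3.3, with Benjamini-Hochberg adjustment over 11861 genes and a two-sided threshold of 0.05. The fit was tested on simulated data. Exact permutation tests used SciPy 1.17.1, doubling the smaller tail of 35 splits. The members, lists and tests were chosen with earlier results of these data known. All 10 members were named, and from each of the 4 wider lists all genes past the threshold and the 4 most abundant others, of which 1 is not reported here. Alternatives are listed in the closing section.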

Additional observations from a re-analysis of the deposited data

Results flagged for a closer look

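Slc10a1 in PTH 3, at 13.8 FPKM, stood apart from the other 3 PTH libraries on the log2 scale: its gap to the nearest was 0.830 of the group's range, above Dixon's 95% critical value for 4 values. It was the only such value among the 10 members and 23 other genes named by rule. Chance alone gives about 1 in 20 genes, so a single one among 33 is not unusual. Without PTH 3 the log2 change of Slc10a1 was -0.90 (limma adjusted p = 0.101).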

How the results depend on the processing

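Alternatives were pseudocounts of 0.1 and 1, no filter or a minimum of 1 FPKM, common-median and quantile scaling, the scaled count columns (pseudocount and minimum 5), limma without trend and robust, array weights, a replicate block, removal of shared loci and of each library, and, chosen after seeing the data, a common median after omission of each library, omission of PTH 2 and PBS 3 for Cyp7a1, and lists with each library left out. No member changed sign. Calls of Cyp8b1 and Slco1b2 held in all 25, Abcb11 in 24 and Slc10a1 in 16. Members called lower numbered 3 to 5 in the settings that kept all libraries. They numbered 2 to 6 with 1 library left out and 3 to 8 with a common median as well. The count of 8, under a common median without PTH 1, stood beside 954 of 11861 tested genes called lower. Members called higher numbered 0, and 0 to 1 with 1 left out. For all genes, calls numbered 2709 higher and 281 lower as deposited, 351 and 563 under a common median, 467 and 510 by quantile scaling, 970 to 2710 and 119 to 431 with 1 library left out, and 56 to 587 (125, 110, 160 and 170 without PTH 3, PBS 1, PBS 2 and PBS 3) and 174 to 954 (185 without PTH 2) with a common median as well. With the replicate block, to which PTH 4 adds nothing, 1558 rose and 177 fell, and the same 4 members were lower. Same-numbered libraries deviated from their group means with correlations of -0.03, -0.16 and 0.01. Those means rest on only 4 and 3 libraries, so these values cannot decide whether shared numbers mark a pairing. Under a common median, 4 other synthesis enzymes, 1 sinusoidal transporter and 1 regulator were lower, beside 4.75% of all tested genes. On that scale 0 sinusoidal transporters, canalicular transporters or regulators were higher, beside 2.96% of all tested genes. With 1 library left out, synthesis enzymes called numbered 0 higher and 1 to 3 lower, sinusoidal transporters 0 to 2 higher and 0 to 1 lower, canalicular transporters 0 to 1 higher and 0 lower, and regulators 0 to 1 higher and 0 to 2 lower. These list counts are to be read beside the 970 to 2710 higher and 119 to 431 lower of 11861 tested genes in the same omissions. The cause of these shifts was not tested. Depth limits Cyp7a1, Cyp8b1, Cyp7b1 and Nr0b2, which hold fewer than 20 reads in several libraries.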
